A study of Mus musculus with 18 samples.

Results

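Wild-type mouse bone marrow-derived macrophages were followed through 8 h of the cytokine TNF in 5 of the 18 libraries of the series. These were 1 unstimulated library and 1 library each after 0.5, 1, 3 and 8 h of TNF at 10 ng/ml, chosen by their labelled genotype (WT), agent and time. Each TNF library was compared with the same unstimulated library, so the 4 comparisons share it. The series holds no unstimulated library at the later times. Effects of TNF, of handling and of time in culture therefore cannot be told apart. The cells were of strain C57BL/6 and were grown to day 7 from bone marrow in IMDM with 30% L929-conditioned medium, a source of the macrophage growth factor M-CSF. The age label reads 12 days, without saying whether this is the age of the mouse or of the culture. No time had a replicate and no separate animals or cultures are named, so the wild-type series alone allows folds and counting intervals but no test. The other libraries were wild-type cells given LPS at 100 ng/ml and RelA-TA-KI cells, which carry a knock-in in Rela (RelA is a subunit of NF-kB). The 5 RelA-TA-KI libraries that were unstimulated or received 10 ng/ml TNF for the same times are used here as another set of libraries, of another genotype and with its own unstimulated library.

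TNF binds the receptors TNFR1 and TNFR2. Through TNFR1 it activates the IKK complex, which has the inhibitor IkB-alpha degraded and lets NF-kB dimers such as RelA:p50 enter the nucleus, and it activates MAP kinases that act on immediate early genes. Many direct targets encode inhibitors of the same pathway (IkB-alpha, A20) beside cytokines, chemokines, adhesion molecules and survival factors. In macrophages TNF is also known to lead later to small amounts of interferon beta and to interferon-type gene expression.

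The values are counts of reads per gene, with 5412812 to 6721917 counts in the 5 wild-type libraries. A gene was called measured at 20 or more counts in at least 1 of the 5, which held for 10465 of 45706 genes. Levels are CPM, read counts relative to TMM-scaled library sizes. A log2 fold change is the difference of log2 CPM from the unstimulated library with a prior count of 2, and a gene is called higher at 1 or more and lower at -1 or less. The one test available was edgeR's quasi-likelihood test of each TNF time over all 18 libraries. It takes its spread from how the genotype pairs differ and gives the average response of both genotypes, not that of wild-type cells. By construction a gene whose response differs between genotypes has a larger standard error in it. In the text "rose", "fell" and "changed" are used only for genes past an adjusted p of 0.05 in that test, and adjusted p-values are edgeR's with Benjamini-Hochberg adjustment over 11308 genes.

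The libraries carried the labelled cell type. The summed level of 20 macrophage markers was 14100 to 15400 CPM in the 5 libraries, against 228 to 333 CPM for 11 neutrophil markers, 97.6 to 168 CPM for 6 stromal, 5.71 to 10.5 CPM for 5 mast cell, 5.63 to 8.97 CPM for 6 dendritic cell, 1.04 to 2.15 CPM for 5 erythroid and 0 to 0.717 CPM for 7 lymphocyte markers. Cd3e, Cd3g, Nkg7, Ncr1, Xcr1, Lum, Cpa3, Mcpt4 and Fcer1a were at 0 in all 5. Mitochondrial genes took 0.553% to 0.762% of counts. Rela itself stood at 63.2, 77.7, 110, 138 and 118 CPM in the unstimulated, 0.5, 1, 3 and 8 h wild-type libraries, and at 67.6 to 122 CPM in the RelA-TA-KI libraries, and gene counts do not show a changed codon. The RelA-TA-KI 3 h TNF library stood apart, with the lowest total of these 10 libraries (4663650 counts) and 0.404% mitochondrial counts. In bulk RNA, fewer cells of a type and less RNA per cell cannot be told apart.

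The response grew at every time and was mostly a late one. Of the 10465 measured genes, 134 (1.28%) were higher at 0.5 h, 211 (2.02%) at 1 h, 455 (4.35%) at 3 h and 779 (7.44%) at 8 h. Fewer were lower, 35 (0.334%), 47 (0.449%), 201 (1.92%) and 558 (5.33%) at the same times. In all, 927 genes (8.86%) were higher and 725 (6.93%) lower at some time, 20 of them both. The 8 h library was not the end of an early programme: of its 779 higher genes, 625 had not been past the fold at 0.5 or 1 h and 154 had. Antiviral interferon-stimulated genes, guanylate-binding proteins and MHC class I genes were among the strongest of these late genes, as described below by group.

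**Figure D1:**
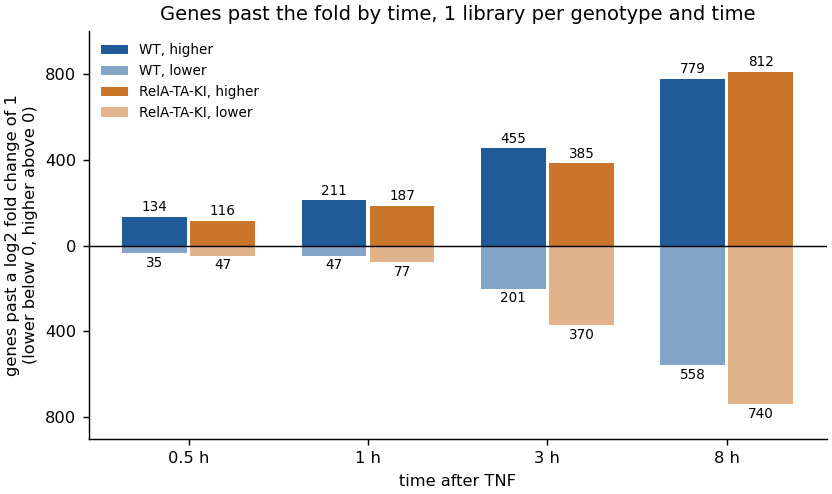
Number of measured genes past a log2 fold change of 1 at each TNF time (horizontal axis), with genes higher above 0 and genes lower below 0 (vertical axis), in wild-type and RelA-TA-KI libraries, each set against its own unstimulated library. Wild-type counts grew from 134 higher and 35 lower genes at 0.5 h to 779 and 558 at 8 h; 1 library per bar, so no error bar is drawn.

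Over both genotypes, edgeR found 43 genes up (0.38%) and 0 down (0.0%) at 0.5 h, 102 up (0.902%) and 19 down (0.168%) at 1 h, 859 up (7.6%) and 663 down (5.86%) at 3 h, and 1934 up (17.1%) and 1677 down (14.8%) at 8 h. At an unadjusted p under 0.05 there were 388, 885, 3087 and 4642 genes, and DESeq2 found 1 gene down at 0.5 h. Without the RelA-TA-KI 3 h TNF library, the 3 h counts were 462 up and 284 down. Scaling by library totals in place of TMM moved the median log2 fold change of all measured genes by -0.2 at 8 h, and edgeR then gave 591 up and 1266 down at 3 h and 1158 up and 3510 down at 8 h. Small 8 h changes over both genotypes therefore depend on the scaling. Of the 927 higher genes, 768 were called by edgeR at their peak time, and of the 725 lower genes 531 were called at their lowest time. The test holds the same wild-type libraries on which these genes and times were chosen, so part of this overlap is built in. The fold rule has a thin edge: 178 higher genes had their largest log2 fold change from 1 to under 1.2, and 272 genes just outside had one from 0.8 to under 1. At the other end, 194 genes reached 3 or more and 50 reached 5 or more.

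In RelA-TA-KI libraries 116 (1.11%), 187 (1.79%), 385 (3.68%) and 812 (7.76%) of the measured genes were higher and 47 (0.449%), 77 (0.736%), 370 (3.54%) and 740 (7.07%) lower at the 4 times. Of the genes higher in wild-type, 64 of 134 (47.8%), 96 of 211 (45.5%), 255 of 455 (56.0%) and 631 of 779 (81.0%) were past the same fold there. Of the genes lower in wild-type it was 5 of 35 (14.3%), 10 of 47 (21.3%), 101 of 201 (50.2%) and 373 of 558 (66.8%). Genotype and library cannot be told apart here, and the difference between genotypes was not tested. At 8 h the median log2 fold change of the 779 genes was 1.79 in wild-type and 1.68 in RelA-TA-KI libraries, while that of the 134 genes at 0.5 h was 1.74 and 0.97.

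By time of peak, 64 higher genes were highest at 0.5 h, 63 at 1 h, 139 at 3 h and 661 at 8 h. In 43, 22, 41 and 514 of these the peak stood at least 0.5 (log2) above the next highest time, so most 1 h and 3 h peaks were shallow. As 8 h was the last time sampled, a peak there is set against earlier times only and may not be the highest level reached. Of the genes that were also past the fold in RelA-TA-KI libraries, 33 of 53, 17 of 41, 41 of 95 and 531 of 547 had the same peak time there. At 0.5 h and 8 h most of these shared the peak time, and at 1 h and 3 h a minority did. Over all measured genes, 57, 67, 148 and 719 peaked at these times in RelA-TA-KI libraries. Most higher genes there thus peaked at 8 h, and a shared 8 h peak says less than a shared earlier one. edgeR called 27 of 64, 22 of 63, 95 of 139 and 624 of the 661 at the peak time, in a test that holds the libraries used to set the peak.

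By duration, 72 higher genes were transient (past the fold at 0.5 or 1 h only), 76 intermediate (at 3 h but no longer at 8 h), 146 sustained (at 0.5 or 1 h and at 3 and 8 h), 233 late (at 3 and 8 h, not before), 392 higher at 8 h only and 8 returning (early and at 8 h, not at 3 h). The median log2 fold changes of the sustained genes were 0.96, 1.64, 2.36 and 2.16 at the 4 times, so a typical sustained gene was still building up to 3 h and then held its level. In RelA-TA-KI libraries the same genes had medians of 0.37, 0.83, 1.91 and 2.12. The late genes had medians of 0.09, 0.37, 1.45 and 2.33 in wild-type and 0.06, 0.09, 0.91 and 2.23 in RelA-TA-KI libraries. These medians come from genes chosen on the wild-type values, so a lower value in the other set is partly set by the choice. The exact class recurred for 29 transient, 14 intermediate, 53 sustained, 96 late, 266 of the 8 h only and 1 of the 8 returning genes, though 50, 37, 138, 211, 296 and 4 of them were past the fold at some time there. Of all measured genes, 0.774%, 0.936%, 0.889%, 1.85%, 4.81% and 0.21% had these classes in RelA-TA-KI libraries.

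**Figure D2:**
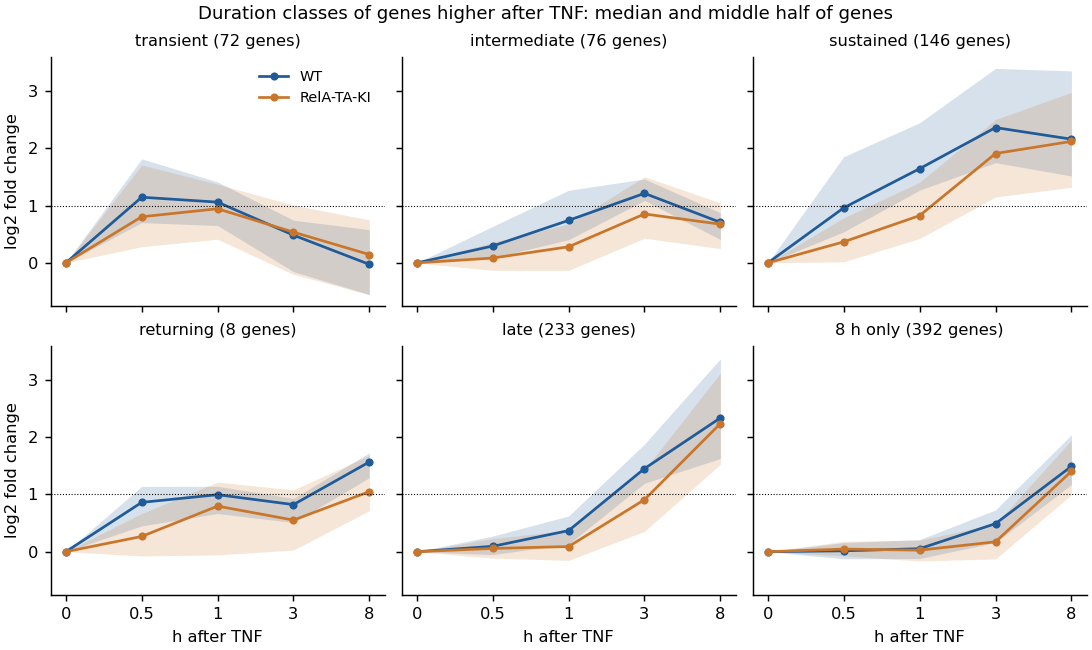
Median log2 fold change (vertical axis; line) and the range of the central 50% of genes (shading) for the 6 duration classes of genes higher after TNF, against hours of TNF on an unscaled axis of sampling times, in wild-type and RelA-TA-KI libraries. Classes were set on the wild-type values; the wild-type median of sustained genes was 0.96 at 0.5 h against 0.37 in RelA-TA-KI libraries, and both sets were at 2.16 and 2.12 at 8 h.

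Short motifs of the kappaB and CRE type were counted in the bases before each gene's start. To show them, 4 promoters of early or sustained genes are printed here and 4 of later ones further on, from RefSeq promoters of build GRCm38.p6. All are read 5′ to 3′ on the gene's strand, and capitals mark the motif. Each ends at the base before the RefSeq start, or before the gene's start in the count annotation where that comes first. The second case holds for Cxcl2 and Ifit1, printed as 222 and 232 bases. The motif is GGANTTTCC (kappaB type) in all but Btg2, where it is TGACGTCA (CRE type), on either strand. The windows are chr1:134079156-134079405 on the minus strand for Btg2, chr5:90903649-90903870 on the plus strand for Cxcl2, chr12:55492648-55492897 on the minus strand for Nfkbia and chr9:21015690-21015939 on the plus strand for Icam1.
Btg2: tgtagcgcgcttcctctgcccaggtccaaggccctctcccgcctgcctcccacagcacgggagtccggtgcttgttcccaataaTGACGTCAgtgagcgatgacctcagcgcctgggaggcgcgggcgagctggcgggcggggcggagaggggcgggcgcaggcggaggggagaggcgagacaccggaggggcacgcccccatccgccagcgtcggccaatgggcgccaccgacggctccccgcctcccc
Cxcl2: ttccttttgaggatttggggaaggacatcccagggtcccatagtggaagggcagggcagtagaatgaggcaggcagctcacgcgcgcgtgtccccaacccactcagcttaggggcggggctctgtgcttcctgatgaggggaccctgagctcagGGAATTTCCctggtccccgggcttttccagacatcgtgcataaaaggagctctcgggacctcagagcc
Nfkbia: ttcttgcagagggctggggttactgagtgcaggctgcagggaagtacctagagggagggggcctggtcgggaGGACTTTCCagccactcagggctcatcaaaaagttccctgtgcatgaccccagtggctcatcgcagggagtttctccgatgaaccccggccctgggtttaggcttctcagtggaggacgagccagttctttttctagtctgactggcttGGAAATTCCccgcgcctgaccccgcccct
Icam1: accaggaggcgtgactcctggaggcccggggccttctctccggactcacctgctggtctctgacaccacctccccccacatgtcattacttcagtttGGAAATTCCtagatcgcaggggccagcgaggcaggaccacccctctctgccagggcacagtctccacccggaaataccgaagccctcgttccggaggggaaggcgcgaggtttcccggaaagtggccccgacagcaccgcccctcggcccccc
Positions are counted from the RefSeq start, which for Cxcl2 lies beyond the end of the printed window. The CRE-type letters begin 166 bases before that of Btg2, and the kappaB-type letters 96 bases before that of Cxcl2. The kappaB-type letters begin 178 and 29 bases before the RefSeq start of Nfkbia and 153 bases before that of Icam1. Nfkbia is the only one of the 4 with 2 such matches, and also holds ISRE-type letters, described further on, at 53 bases (in lower case).

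A promoter window was found for 8359 of 10447 measured symbols. GGANTTTCC occurred in 11.6% of the windows of genes peaking at 0.5 h (5 of 43) and in 13.7% of those of sustained genes (16 of 117), against 1.08% of all measured genes and 1.07% of all 32851 promoters. It was in 1 of 45 transient, 3 of 187 late and 3 of 306 of the 8 h only genes. TGACGTCA occurred in 11.6% of the genes peaking at 0.5 h, 2.08% of those peaking at 1 h, 8.89% of transient genes, 2.9% of all measured genes and 1.55% of all promoters. The CArG box, the core of the serum response element, was in 2 of 45 transient genes (4.44%), 0 of 117 sustained genes, 1.03% of all measured genes and 1.47% of all promoters. These are counts of letters, and the 11.6% rests on 5 genes for each motif, so no factor or cause is read from them.

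An element of 3′ UTRs was also counted. The AU-rich nonamer ATTTATTTA, a sequence known to mark short-lived mRNAs, was in the 3′ UTR of 13 of 61 genes peaking at 0.5 h (21.3%), 9.68% of those peaking at 1 h, 8.46% at 3 h and 3.94% at 8 h. It was in 5.74% of all measured genes and in 5.23% of all 21685 annotated 3′ UTRs. Genes peaking at 0.5 h also spanned less of the genome, with a median of 5.3 kb from start to end against 23.8 kb for all measured genes. The promoter windows of genes peaking at 8 h had a median ratio of observed to expected CpG of 0.494, against 0.705 for those peaking at 0.5 h and 0.756 for all measured genes. The UTR count and these descriptive values were added after the data had been seen.

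Immediate early transcription factors peaked at 0.5 h. Of 22 measured members, 16 were higher at 0.5 h, where 1.28% of all measured genes were, then 12, 5 and 4 at 1, 3 and 8 h. Their median log2 fold change was 2.0, 1.03, 0.42 and 0.14 (-0.06 at 8 h on library totals), against 0.00, 0.00, -0.02 and -0.03 for all measured genes. Of the 18 higher at some time, 13 were transient. Over both genotypes 12, 9, 7 and 8 rose at the 4 times, and 0, 0, 1 and 3 fell (at 3 h 6 rose and 1 fell without the RelA-TA-KI 3 h library, and at 8 h 5 rose and 3 fell on library totals). Among all genes tested edgeR called 0.38% up at 0.5 h, and 17.1% up and 14.8% down at 8 h.

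Egr1, a zinc finger transcription factor, stood at 10.1 CPM unstimulated and at 369, 15.9, 6.28 and 2.33 CPM at 0.5, 1, 3 and 8 h. The 0.5 h library was the only one far above the start, 36.4-fold with a 95% counting interval of 29.2 to 46.0, and by 8 h the gene was below its start. Egr1 rose at 0.5 h (edgeR log2 fold change 5.07 ± 0.42 SE, adjusted p = 0.000361) and fell over both genotypes at 8 h (adjusted p = 0.0319 by edgeR). Counting intervals here and below cover counting error only, since reads without molecular identifiers are not independent molecules. Btg2, an antiproliferative immediate early gene, stood at 6.88, 147, 27.8, 12.4 and 11.3 CPM. It was 21.4-fold higher at 0.5 h (interval 16.3 to 28.6) and its edgeR log2 fold change of 4.26 ± 0.17 (adjusted p = 1.57e-08) had the lowest p of the 0.5 h members described here.

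The nuclear receptor gene Nr4a1 (5.13, 53.0, 14.3, 2.25 and 1.61 CPM) went from above to below its start. It rose by 3.29 ± 0.24 at 0.5 h (adjusted p = 1.17e-05 by edgeR) and fell at 3 and 8 h (adjusted p = 0.0487 and 0.0028 by edgeR). Fosb, a subunit of AP-1, held its peak longer, at 1.13, 22.9, 16.5, 0.965 and 0.359 CPM, and rose at both 0.5 h and 1 h (edgeR adjusted p = 0.000326 and 0.000381). Fos stood at 15.1, 83.9, 8.57, 10.5 and 13.1 CPM, with a 0.5 h adjusted p of 0.0668 by edgeR. Junb did not return: it stood at 31.1, 403, 204, 160 and 123 CPM and rose at every time (edgeR adjusted p from 0.000323 to 0.00151). Maff, a small MAF factor, was likewise sustained at 7.13, 39.5, 34.9, 40.4 and 21.0 CPM. Myc went the other way after 0.5 h, at 46.3, 71.9, 20.1, 21.9 and 24.9 CPM, with log2 fold changes of -1.19, -1.07 and -0.88 at 1, 3 and 8 h, of which only the 8 h value passed the test (edgeR adjusted p = 0.0422).

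**Figure D3:**
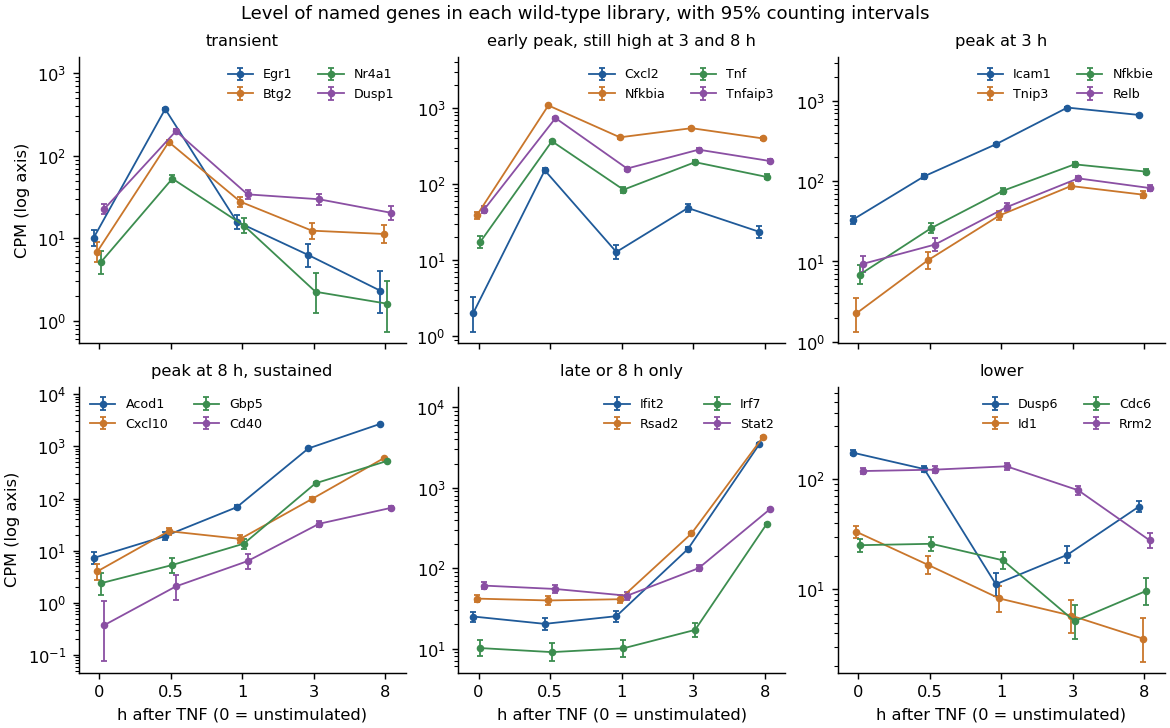
CPM in each of the 5 wild-type libraries (vertical axis, log scale) against hours of TNF (0 is the unstimulated library; sampling times evenly spaced) for 24 genes in 6 panels by course; bars are exact 95% Poisson counting intervals. Egr1 falls from 369 CPM at 0.5 h to 2.33 CPM at 8 h while Ifit2 stays from 20.3 to 25.3 CPM through 1 h and reaches 3506 CPM at 8 h.

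Most genes of MAP kinase phosphatases and of mRNA decay followed the same short course. Of 14 measured, 9 were higher at 0.5 h, 4 at 1 h, 1 at 3 h and 0 at 8 h, with medians of 1.16, 0.66, 0.21 and -0.08. Of the 10 higher at some time 9 were transient, and 5, 2, 4 and 3 rose by edgeR at the 4 times (1 at 3 h without the RelA-TA-KI 3 h library, and 1 at 8 h on library totals). At 0.5 h 1.28% of all measured genes were higher. Among all genes tested edgeR called 0.38%, 0.902%, 7.6% and 17.1% up at the 4 times. Dusp1, a phosphatase of p38 and JNK, stood at 22.8, 199, 34.1, 29.8 and 20.4 CPM and rose at 0.5 h (3.52 ± 0.52, adjusted p = 0.0201 by edgeR). In RelA-TA-KI libraries Dusp1 stayed above its start, with log2 fold changes of 4.11, 2.11, 2.42 and 1.82 against 3.11, 0.58, 0.38 and -0.15 in wild-type. Zfp36, whose product tristetraprolin binds AU-rich mRNAs, stood at 45.3, 287, 68.0, 85.3 and 70.1 CPM and rose at 0.5 h (2.34 ± 0.24, adjusted p = 0.000502 by edgeR). Dusp2 reached 34.3 CPM from 3.38 CPM at 0.5 h in wild-type, a log2 fold change of 3.21 against 0.66 in RelA-TA-KI libraries, and did not pass the test (adjusted p = 1.0 by edgeR). Dusp16 peaked at 1 h instead, at 22.4, 25.1, 81.5, 35.9 and 34.2 CPM, and rose there (adjusted p = 0.000367 by edgeR). Zc3h12c, of a family of RNA-binding nucleases, also peaked at 1 h, at 20.9, 50.6, 164, 86.7 and 41.8 CPM, with an adjusted p of 0.105 at 1 h and 0.0271 at 3 h by edgeR.

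Dusp6, the phosphatase specific to ERK, was the largest exception of the group, though not the only one. Zfp36l2 was below its start at every wild-type time (log2 fold changes of -0.50, -0.76, -0.82 and -0.14). Dusp10 and Zfp36l1 were lower at 8 h, at -1.34 and -1.12. Zfp36l1 shares 56.0% of its exon bases with another gene, so its counts are less certain. Dusp6 stood at 174 CPM unstimulated, 123 CPM at 0.5 h, 11.1 CPM at 1 h, 20.6 CPM at 3 h and 56.3 CPM at 8 h. At 1 h it was at 0.0641 of its start (95% counting interval 0.05 to 0.0810) and it fell over both genotypes (edgeR log2 fold change -3.38 ± 0.54, adjusted p = 0.0169). This was the deepest drop among genes with their lowest value at 1 h, with log2 fold changes of -3.92, -3.05 and -1.62 at 1, 3 and 8 h in wild-type. In RelA-TA-KI libraries they were -2.92, -3.81 and -3.20, so the low point was at 3 h there, and the difference was not tested.

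Most inhibitors of NF-kB were higher early and stayed so. Of 12 measured members, 6 were higher at 0.5 h, 9 at 1 h, 8 at 3 h and 8 at 8 h, with medians of 1.31, 1.53, 1.88 and 1.60. Of the 10 higher at some time, 7 were sustained. Fewer passed the test early, with 1, 1, 5 and 8 up by edgeR at the 4 times (3 at 3 h without the RelA-TA-KI 3 h library, and 7 at 8 h on library totals). From 0.5 to 8 h, 1.28% to 7.44% of all measured genes were higher, and edgeR called 0.38% to 17.1% of all genes tested up.

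Nfkbia, which encodes IkB-alpha, stood at 38.7 CPM unstimulated and at 1085, 413, 545 and 399 CPM at 0.5, 1, 3 and 8 h. Every TNF library was thus more than 10-fold above the start, with 28.1-fold at 0.5 h (95% counting interval 25 to 31.5) and 10.3-fold at 8 h. In RelA-TA-KI libraries its log2 fold changes were 2.29, 2.94, 3.54 and 3.17 against 4.80, 3.4, 3.8 and 3.35 in wild-type, and edgeR called it at 3 and 8 h (adjusted p = 0.0121 and 0.00815) and not at 0.5 h (adjusted p = 0.125). Tnfaip3, which encodes the ubiquitin-editing enzyme A20, stood at 45.9, 739, 160, 284 and 201 CPM. It did not pass the test at any time, with edgeR adjusted p from 0.109 to 0.914 and log2 fold changes of 4.0 and 1.04 at 0.5 h in wild-type and RelA-TA-KI libraries.

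The inhibitors differed in when they peaked. Nfkbiz, encoding the nuclear cofactor IkB-zeta, peaked at 0.5 h (6.00, 172, 24.1, 21.9 and 11.8 CPM) and rose there (4.35 ± 0.65, adjusted p = 0.0231 by edgeR). Nfkbie, encoding IkB-epsilon, climbed more slowly to a 3 h peak (6.88, 26.2, 76.1, 162 and 132 CPM; edgeR at 3 h 4.04 ± 0.93, adjusted p = 0.0197). Tnip3, encoding the A20-binding protein ABIN-3, did the same (2.25, 10.3, 37.4, 87.2 and 68.2 CPM; edgeR at 3 h 4.92 ± 0.77, adjusted p = 0.00315). Tnip1 stood at 62.2, 61.8, 150, 243 and 199 CPM and rose at 3 h (adjusted p = 0.00483 by edgeR). Cyld, encoding a deubiquitinase, was within 0.47 of its start on the log2 scale at every wild-type time, and rose by 0.46 ± 0.15 at 8 h (adjusted p = 0.0371 by edgeR). Scaling by library totals moved the 8 h median of all measured genes by -0.2, so this small rise is less certain.

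NF-kB subunit genes passed the fold from 1 h on. Of 5, 0 were higher at 0.5 h, 3 at 1 h, 4 at 3 h and 2 at 8 h, and 0, 2, 4 and 4 rose by edgeR (0 at 1 h on library totals). At 3 h 4.35% of all measured genes were higher, and edgeR called 7.6% of all genes tested up. Relb stood at 9.38, 16.3, 47.5, 109 and 82.3 CPM and Nfkb2, encoding p100, at 32.8, 54.0, 101, 242 and 211 CPM, both sustained. They rose at 3 h by 3.16 ± 0.37 and 2.46 ± 0.30 (adjusted p = 0.000379 and 0.000477 by edgeR). Rel, encoding c-Rel, was the single member that peaked at 1 h, at 47.5, 92.3, 156, 63.7 and 51.3 CPM, and did not pass at 1 h (adjusted p = 0.243 by edgeR). Nfkb1 and Rela passed the fold at 3 h only, with wild-type log2 fold changes of 1.41 and 1.13, and both rose there (adjusted p = 0.00893 and 0.000573 by edgeR).

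Few of the receptors and adaptors that carry the TNF signal were past the fold at any one time. Of 23 measured genes, 2, 2, 2 and 4 were higher at the 4 times, 5 in all (8.86% of all measured genes were higher at some time), with medians of -0.03, -0.02, 0.15 and 0.32, and 0, 0, 5 and 8 rose by edgeR, which called 17.1% of all genes up at 8 h (6 rose and 3 fell at 8 h on library totals, and 2 fell at 3 h). Tnfrsf1a, encoding TNFR1, stood at 153, 144, 138, 136 and 191 CPM and did not pass the test at 8 h (0.29 ± 0.11, adjusted p = 0.0579 by edgeR). Tnfrsf1b, encoding TNFR2, climbed at every time from 195 CPM to 233, 423, 648 and 816 CPM and rose at 8 h (2.14 ± 0.28, adjusted p = 0.000149 by edgeR). Traf1, an adaptor bound to TNFR2, went from 1.00 CPM to 3.85, 8.42, 28.2 and 47.4 CPM. It was 47.3-fold higher at 8 h on 8 unstimulated counts (95% counting interval 23.7 to 111) and rose (6.36 ± 0.96, adjusted p = 0.000734 by edgeR). Rnf31, the catalytic subunit of the linear ubiquitin ligase LUBAC, stood at 20.9, 20, 18.5, 34.1 and 76.2 CPM and rose at 8 h (1.83 ± 0.12, adjusted p = 1.48e-07 by edgeR).

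Cytokine genes had early, sustained and late courses. Of 21 listed, 13 were measured, and 7, 7, 9 and 9 of these were higher at the 4 times. By edgeR 1, 1, 4 and 7 rose (1 at 3 h without the RelA-TA-KI 3 h library). From 0.5 to 8 h, 1.28% to 7.44% of all measured genes were higher, and edgeR called 0.38% to 17.1% of all genes tested up. Il1b, encoding interleukin 1 beta, stood at 1.25, 102, 36.7, 8.69 and 2.87 CPM, from 10 unstimulated counts. It was 81.6-fold higher at 0.5 h (95% counting interval 44.1 to 171) and rose there (5.93 ± 0.64, adjusted p = 0.00181 by edgeR), and by 8 h its log2 fold change was 1.00. Tnf itself stood at 17.4, 366, 84.3, 194 and 124 CPM, so its level dipped at 1 h and was higher again at 3 h. It rose at 3 and 8 h (adjusted p = 0.0104 and 0.0148 by edgeR) but did not pass at 0.5 h (adjusted p = 0.126), where the log2 fold change was 4.37 in wild-type and 2.33 in RelA-TA-KI libraries.

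Tnfsf9, encoding the ligand 4-1BBL, was far higher early in wild-type than in RelA-TA-KI libraries. It stood at 7.38, 237, 89.5, 37.3 and 10.6 CPM in wild-type, 32.1-fold higher at 0.5 h (95% counting interval 24.8 to 42.4), and was back near its start by 8 h. Its RelA-TA-KI log2 fold changes were 1.1, 0.94, 1.60 and -0.29 against 4.94, 3.54, 2.28 and 0.50, and it did not pass the test at 0.5 h (adjusted p = 1.0 by edgeR). Csf1, encoding M-CSF, built up to 3 h (71.6, 110, 218, 347 and 158 CPM) and rose there (2.25 ± 0.44, adjusted p = 0.00912 by edgeR). Il15 and Il27 were late cytokines: Il15 stood at 13.3, 11.5, 13.2, 32.3 and 50.9 CPM and Il27 at 0.375, 0.148, 0.902, 4.99 and 11.3 CPM. Both rose at 8 h (adjusted p = 0.00143 and 0.00109 by edgeR). Interferon beta was near the limit of detection, with 1, 0, 0, 0 and 1 counts of Ifnb1 in the 5 libraries, and Il6 had 0, 3, 1, 2 and 0 counts.

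Chemokine genes split between an early and a late set. Of 14 measured of 19 listed, 7, 5, 8 and 9 were higher at the 4 times and 4, 0, 8 and 8 rose by edgeR (6 at 3 h without the RelA-TA-KI 3 h library). From 0.5 to 8 h, 1.28% to 7.44% of all measured genes were higher, and edgeR called 0.38% to 17.1% of all genes tested up. The neutrophil attractant Cxcl2 stood at 2.0, 152, 12.8, 48.4 and 23.5 CPM. It was 75.8-fold higher at 0.5 h (95% counting interval 46.5 to 133), with an adjusted p of 0.0503 at 0.5 h and 0.0159 at 3 h by edgeR. Its neighbour Cxcl1 had 0 unstimulated counts and 180, 15, 25 and 5 counts after TNF, at least 70.9-fold higher at 0.5 h against a floor of 3 counts in the unstimulated library, and rose (adjusted p = 0.0355 by edgeR). Both genes, like Tnf, had their lowest of the first 3 TNF values at 1 h. The monocyte attractants Ccl2 (388, 714, 367, 290 and 320 CPM) and Ccl7 (202, 432, 159, 120 and 153 CPM) rose at 0.5 h (adjusted p = 0.0357 and 0.012 by edgeR) and were at or below their start from 1 h on.

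Other chemokines, among them ligands of the T cell chemokine receptor CXCR3, were highest at 8 h. Cxcl10 stood at 4.0, 23.7, 16.8, 98.0 and 589 CPM. It was 147-fold higher at 8 h (95% counting interval 104 to 216), after a small early step, and rose (7.01 ± 1.07, adjusted p = 0.000825 by edgeR). Ccl5 had 7, 7, 6, 130 and 790 counts, with nothing before 3 h, was 162-fold higher at 8 h (interval 78.2 to 404) and rose (6.48 ± 0.79, adjusted p = 0.000163 by edgeR). Its 3 h log2 fold change was 4.10 in wild-type and 0.33 in RelA-TA-KI libraries. Cxcl9 had 0, 0, 2, 8 and 42 counts and was at least 20.1-fold higher at 8 h against the floor of 3 counts. Cxcl16, a transmembrane chemokine, climbed at each time from 5.50 CPM to 12.9, 22.4, 86.4 and 133 CPM and rose (adjusted p = 1.19e-05 at 8 h by edgeR). Its exons share 18.3% of their bases with a neighbouring gene, so its counts are less certain, as the strand setting of the counting is not given.

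Among survival factors most were higher by 3 h. Of 12 measured, 1, 4, 7 and 7 were higher at the 4 times, and 0, 2, 5 and 8 rose by edgeR while 2 fell at 3 h and 1 at 8 h (6 and 4 at 8 h on library totals). Of all genes tested, edgeR called 7.6% up and 5.86% down at 3 h, and 17.1% up and 14.8% down at 8 h. Cflar, encoding the caspase-8 inhibitor c-FLIP, climbed from 134 CPM to 219, 330, 479 and 570 CPM and rose at 8 h (2.04 ± 0.19, adjusted p = 3.98e-06 by edgeR). Birc3, encoding the ubiquitin ligase cIAP2, went from 17.3 CPM to 33.7, 66.2, 109 and 114 CPM (2.76 ± 0.43 at 8 h, adjusted p = 0.000667 by edgeR). Sod2, the mitochondrial superoxide dismutase, went from 63.4 CPM to 106, 163, 322 and 533 CPM and rose at 8 h (adjusted p = 0.00812 by edgeR). Its wild-type log2 fold change at 8 h was 3.06, against 1.48 in RelA-TA-KI libraries. The members that fell were Gadd45a and Bcl2 at 3 h and Gadd45a at 8 h, with wild-type log2 fold changes of -1.01 and -0.86 at 3 h and -0.99 for Gadd45a at 8 h. Gadd45a shares 19.1% of its exon bases with another gene, so its counts are less certain.

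Among 12 measured adhesion molecules, 1, 1, 2 and 3 were higher at the 4 times, with medians of 0.02, 0.12, 0.17 and 0.08 (-0.13 at 8 h on library totals). By edgeR 0, 0, 3 and 5 rose and 2 fell at 8 h (0 rose at 3 h without the RelA-TA-KI 3 h library and 1 on library totals, and 3 rose and 3 fell at 8 h on library totals). Of all genes tested, edgeR called 7.6% up at 3 h, and 17.1% up and 14.8% down at 8 h. Icam1, a ligand of leukocyte integrins, stood apart from the rest at 33.1, 115, 289, 828 and 670 CPM. It was 25-fold higher at 3 h (95% counting interval 22.1 to 28.4) and rose at 3 and 8 h (3.86 ± 0.85 and 4.05 ± 0.86, adjusted p = 0.0164 and 0.0055 by edgeR). At 0.5 h its log2 fold change was 1.79 in wild-type and 0.04 in RelA-TA-KI libraries. Vcam1, a ligand of VLA-4, came later, at 10.5, 15.4, 17.1, 36.4 and 61.0 CPM, and rose at 8 h (adjusted p = 0.000374 by edgeR).

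Most inflammatory effectors and receptors were higher from 3 h on. Of 30 measured, 12, 18, 24 and 25 were higher at the 4 times, with medians of 0.76, 1.39, 2.37 and 2.88; 17 were sustained and 7 late. By edgeR 2, 6, 19 and 25 rose, and 16 at 3 h without the RelA-TA-KI 3 h library. From 0.5 to 8 h, 1.28% to 7.44% of all measured genes were higher, and edgeR called 0.38% to 17.1% of all genes tested up. Acod1, the enzyme that makes itaconate, went from 7.26 CPM to 19.1, 68.3, 912 and 2685 CPM. This was the largest log2 fold change of any gene at its peak here (8.46, 370-fold with a 95% counting interval of 286 to 488), and Acod1 rose over both genotypes (8.16 ± 0.81, adjusted p = 4.65e-05 by edgeR). Cd40, a costimulatory receptor, had 3, 14, 42, 204 and 368 counts, 176-fold at 8 h with a wide interval of 59.7 to 857, and rose (adjusted p = 0.00337 by edgeR).

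Gpr84, a receptor for medium-chain fatty acids, stood at 2.63, 17.9, 25.6, 87.2 and 160 CPM and rose at 3 and 8 h (adjusted p = 0.000875 and 6.01e-05 by edgeR). Clec4e, encoding the C-type lectin Mincle, climbed from 33.5 CPM to 166, 277, 1003 and 2063 CPM (adjusted p = 0.000401 at 8 h by edgeR). Nlrp3, the inflammasome sensor, had a flat early plateau of 211, 268 and 226 CPM from 48.2 CPM and 132 CPM at 8 h, and rose from 1 h on (adjusted p = 0.00824, 0.0021 and 0.0343 by edgeR). Saa3, an acute-phase protein gene, stood at 1.75, 3.25, 2.86, 30.9 and 166 CPM, 94.9-fold higher at 8 h (interval 56.3 to 174). It rose in the test (adjusted p = 1.11e-06 by edgeR), with a log2 fold change of 6.30 in wild-type and 1.06 in RelA-TA-KI libraries. Nos2, the inducible nitric oxide synthase, was nearly all an 8 h gene, with 4, 2, 6, 25 and 195 counts (adjusted p = 0.00823 by edgeR). Ptgs2, encoding the prostaglandin synthase COX-2, was by contrast transient at 6.00, 37.1, 12.5, 10.3 and 7.71 CPM and did not pass the test at 0.5 h (adjusted p = 0.177 by edgeR).

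Genes that peaked at 1 h or 3 h outside these groups had broad courses. Pde4b, a cAMP phosphodiesterase, stood at 7.13, 96.0, 120, 113 and 62.0 CPM and rose at 1 h (3.88 ± 0.55, adjusted p = 0.00777 by edgeR). Cd83, a marker of activated antigen-presenting cells, held 325, 404 and 280 CPM through 3 h from 39.5 CPM and was at 55.2 CPM at 8 h, with an adjusted p of 0.41 at 1 h by edgeR. Il4i1, a secreted amino acid oxidase, had 4, 8, 24, 130 and 74 counts and rose at 3 h (adjusted p = 0.0162 by edgeR). Phldb1 was the clearest 3 h peak among the named intermediate genes, at 8.13, 9.17, 19.6, 61.1 and 14.3 CPM, with log2 fold changes of 2.86 at 3 h and 0.79 at 8 h. It rose at 3 h (3.02 ± 0.41, adjusted p = 0.000955 by edgeR).

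The interferon-type genes were part of the late wave. None of 35 antiviral interferon-stimulated genes was higher at 0.5 or 1 h, 15 were higher at 3 h and all 35 at 8 h, when 7.44% of all measured genes were. Their medians were -0.17, 0.01, 0.84 and 4.07. All 35 rose at 8 h over both genotypes by edgeR, 16 at 3 h (17 without the RelA-TA-KI 3 h library) and 0 at 0.5 or 1 h. By duration 15 were late and 20 higher at 8 h only, and 8 h log2 fold changes ran from 1.99 for Bst2, an antiviral membrane tether, to 7.11 for Ifit2.

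Ifit2, which encodes an antiviral protein, stood at 25, 20.3, 25.3, 173 and 3506 CPM. It was level through 1 h, partly up at 3 h and 140-fold higher at 8 h (95% counting interval 122 to 162), and rose (7.18 ± 0.48, adjusted p = 1.5e-06 by edgeR). Rsad2, encoding viperin, followed it at 41.8, 39.6, 41.0, 270 and 4291 CPM (6.61 ± 0.36, adjusted p = 3.05e-07 at 8 h by edgeR). Isg15, a ubiquitin-like modifier, stood at 5.25, 5.62, 6.01, 20.3 and 410 CPM, and Mx1, an antiviral GTPase, at 2.50, 1.77, 1.65, 14.6 and 235 CPM. Both rose at 8 h (adjusted p = 1.18e-08 and 1.7e-06 by edgeR). Others were below the fold at 3 h: Usp18, which removes Isg15, stood at 4.25, 3.55, 3.01, 7.88 and 153 CPM, and Oas1a at 14.6, 12.0, 12.9, 12.4 and 83.2 CPM. Both rose at 8 h (adjusted p = 2.57e-07 and 4.36e-07 by edgeR). Ifi44 had 1, 1, 0, 3 and 143 counts and a ratio of 205 at 8 h with an interval from 36.2 to 8153. RelA-TA-KI libraries had 8 h log2 fold changes close to these, 7.18 for Ifit2, 6.48 for Rsad2, 6.15 for Isg15 and 5.65 for Mx1.

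**Figure D4:**
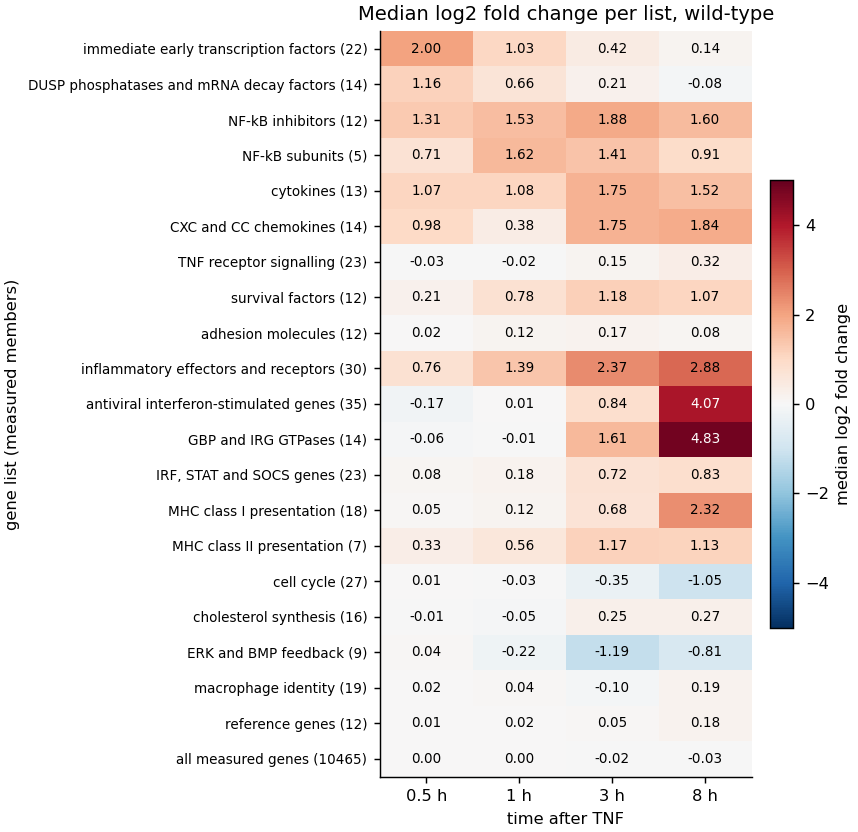
Median wild-type log2 fold change (colour and printed value) of the measured members of each gene list (rows, number of members in parentheses) at each TNF time (columns). Immediate early transcription factors go from 2.0 at 0.5 h to 0.14 at 8 h, and antiviral interferon-stimulated genes from -0.17 to 4.07; the bottom row gives all measured genes.

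ISRE-type letters were counted in the same way. The motif GAAANNGAA, on either strand, was in 19.8% of late genes (37 of 187), 16.3% of 8 h only genes, 12.8% of sustained and 2.22% of transient genes (1 of 45), and in 6.98% and 6.25% of genes peaking at 0.5 and 1 h, against 6.4% of all measured genes and 7.13% of all 32851 promoters. AP-1-type letters (TGANTCA) were in 11.8% of late genes, 11.6% of genes peaking at 0.5 h (5 of 43), 8.55% of sustained genes, 3.92% of all measured genes and 6.75% of all promoters. The 4 promoters that follow, from the same RefSeq set and build, belong to genes at their highest at 8 h, and capitals mark ISRE-type and kappaB-type letters only. The windows are chr5:92348890-92349139 on the minus strand for Cxcl10, chr19:34640639-34640870 on the plus strand for Ifit1, chr19:34583279-34583528 on the plus strand for Ifit3 and chr12:26456453-26456702 on the minus strand for Rsad2.
Cxcl10: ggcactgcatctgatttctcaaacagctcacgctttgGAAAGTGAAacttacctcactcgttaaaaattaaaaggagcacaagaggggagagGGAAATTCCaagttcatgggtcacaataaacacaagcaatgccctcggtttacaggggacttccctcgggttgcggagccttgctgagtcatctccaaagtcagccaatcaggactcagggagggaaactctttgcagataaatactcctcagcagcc
Ifit1: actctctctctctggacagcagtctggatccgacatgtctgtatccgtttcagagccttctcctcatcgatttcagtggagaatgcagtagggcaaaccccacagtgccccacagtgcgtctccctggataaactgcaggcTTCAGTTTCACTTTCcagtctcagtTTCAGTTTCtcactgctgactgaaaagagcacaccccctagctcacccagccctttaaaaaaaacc
Ifit3: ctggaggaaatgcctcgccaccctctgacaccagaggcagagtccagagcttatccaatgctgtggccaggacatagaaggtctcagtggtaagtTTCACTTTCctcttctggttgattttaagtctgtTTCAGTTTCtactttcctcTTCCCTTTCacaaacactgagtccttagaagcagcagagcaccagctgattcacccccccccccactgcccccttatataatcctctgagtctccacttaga
Rsad2: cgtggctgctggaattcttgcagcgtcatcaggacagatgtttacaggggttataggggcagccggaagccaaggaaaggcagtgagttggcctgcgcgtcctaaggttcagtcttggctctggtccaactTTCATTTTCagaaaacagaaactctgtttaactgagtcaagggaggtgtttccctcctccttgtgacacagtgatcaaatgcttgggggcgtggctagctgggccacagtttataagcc
Cxcl10 holds both kinds, the ISRE type 213 bases and the kappaB type 158 bases before its start, and is the one gene of the 4 past the fold by 0.5 h. Ifit1 has 3 ISRE-type matches, at 109, 103 and 84 bases before its RefSeq start, which lies beyond the end of its printed window. Of these the first pair overlap in 1 capitalised run. Ifit3 has 3, at 155, 121 and 102 bases, and Rsad2 has 1 at 119 bases. AP-1-type letters, left in lower case, begin 74 bases before the start of Cxcl10, 56 before that of Ifit3 and 87 before that of Rsad2. The letters are not shown to be bound by any factor.

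Transcription factors of the interferon response were no earlier than the genes above. Stat2 stood at 60.7, 55.0, 45.4, 99.9 and 545 CPM and Irf9 at 29.6, 26.3, 31.6, 37.3 and 88.2 CPM, both higher at 8 h only (adjusted p = 9.16e-08 and 1.13e-06 by edgeR). Irf7 stood at 10.1, 9.02, 10.1, 17.1 and 354 CPM, 34.9-fold at 8 h (95% counting interval 27.9 to 44.1; adjusted p = 2.65e-08 by edgeR). Irf1, an interferon regulatory factor known as a direct NF-kB target, was the exception. It stood at 24.3, 278, 315, 426 and 336 CPM, above 10-fold from 0.5 h on, while in RelA-TA-KI libraries its log2 fold changes were -0.08, 1.67, 2.76 and 3.71. It passed the test at 8 h only (3.89 ± 1.28, adjusted p = 0.0442 by edgeR). Of the 23 measured IRF, STAT, SOCS, JAK and interferon receptor genes, 3, 3, 5 and 11 were higher and 0, 1, 8 and 13 rose by edgeR (6 at 3 h without the RelA-TA-KI 3 h library). From 0.5 to 8 h, 1.28% to 7.44% of all measured genes were higher, and edgeR called 0.38% to 17.1% of all genes tested up. Socs3, an inhibitor of cytokine receptors, was early (5.75, 148, 37.3, 49.5 and 21.9 CPM, adjusted p = 1.0 at 0.5 h by edgeR) and Socs1 late (11, 10, 13, 21 and 98 counts, adjusted p = 0.000113 at 8 h).

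Guanylate-binding proteins and immunity-related GTPases began earlier than the antiviral genes in part. Of 14 measured, 1, 3, 11 and 14 were higher at the 4 times, with medians of -0.06, -0.01, 1.61 and 4.83. All 14 rose at 8 h by edgeR, 5 at 3 h (9 without the RelA-TA-KI 3 h library) and 0 before. At 8 h 7.44% of all measured genes were higher, and edgeR called 17.1% of all genes tested up. Gbp5 stood at 2.38, 5.33, 13.7, 196 and 526 CPM, 221-fold at 8 h (95% counting interval 141 to 368), and rose (7.51 ± 1.26, adjusted p = 0.00145 by edgeR). Gbp2 stood at 8.13, 9.62, 15, 143 and 830 CPM, with a 3 h log2 fold change of 4.07 in wild-type and 1.03 in RelA-TA-KI libraries and 6.61 and 5.26 at 8 h. Gbp6 had 0 unstimulated counts and 132 at 8 h, at least 63.1-fold higher against the floor of 3 counts. Its exons share 29.0% of their bases with another gene, and reads of these close paralogs could be split between them. Irgm1, which acts at phagosomes and autophagosomes, stood at 49.8, 43.9, 40.5, 123 and 525 CPM (adjusted p = 3.83e-06 at 8 h by edgeR).

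MHC class I presentation was an 8 h programme as well. Of 18 measured genes, 0, 0, 5 and 18 were higher, with medians of 0.05, 0.12, 0.68 and 2.32, and 0, 0, 8 and 18 rose by edgeR (10 at 3 h without the RelA-TA-KI 3 h library). At 8 h 7.44% of all measured genes were higher, and edgeR called 17.1% of all genes tested up. H2-K1, a classical class I heavy chain, stood at 253, 341, 370, 699 and 1300 CPM and rose at 8 h (2.13 ± 0.15, adjusted p = 2.59e-07 by edgeR). Tap1, a peptide transporter, stood at 31.0, 31.9, 29.8, 50.5 and 312 CPM (3.08 ± 0.24, adjusted p = 1.5e-06) and Nlrc5, the class I transactivator, at 15.9, 13.6, 16.1, 27.4 and 145 CPM (2.90 ± 0.22, adjusted p = 1.02e-06 by edgeR). B2m, the light chain, stood at 572, 599, 662, 818 and 1624 CPM and rose at 3 and 8 h (adjusted p = 0.00313 and 5.49e-08 by edgeR). H2-M2, a nonclassical class I gene outside that list, had 2, 5, 10, 70 and 513 counts and a ratio of 368 at 8 h (interval 101 to 3044; adjusted p = 2.18e-05 by edgeR). Class II genes moved less: of 7, 0, 1, 4 and 4 were higher, with medians of 0.33, 0.56, 1.17 and 1.13, and all 7 rose at 8 h by edgeR. Ciita, the class II transactivator, had 17, 21, 22, 52 and 63 counts, with an 8 h log2 fold change of 2.23 in wild-type and 4.26 in RelA-TA-KI libraries.

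A true second wave, in which a gene is higher early, drops and is higher again at 8 h, was rare. Only Mag and Mmp9 met the rule of an early and an 8 h log2 fold change of 1 or more with 3 h at least 0.5 below both, and only Mag met it with a drop and return of 1. Both are expressed below 10 CPM and are named because so few met the rule, after their values had been seen. Mag, a myelin glycoprotein gene, had 7, 11, 17, 5 and 20 counts, with log2 fold changes of 0.68, 1.24, -0.09 and 1.67, and a ratio at 8 h of 4.10 with an interval from 1.66 to 11.5. Mmp9, a gelatinase that degrades matrix, had 28, 54, 36, 28 and 51 counts, with log2 fold changes of 1.11, 0.58, 0.33 and 1.30. The corresponding values in RelA-TA-KI libraries were -0.05, -0.17, -0.27 and 0.70 for Mag and 1.35, 1.34, 0.05 and 1.59 for Mmp9, so that the dip at 3 h recurred for Mmp9, in the library that stood apart. Mmp9 rose at 8 h (1.53 ± 0.29, adjusted p = 0.00121 by edgeR) and did not pass at 3 h (adjusted p = 0.655).

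Of the other returning genes, Creb5, a CRE-binding transcription factor, stood at 10.1, 9.76, 27.7, 19.5 and 39.5 CPM. Its 3 h log2 fold change of 0.92 lay just under 0.5 below the 1.42 at 1 h, so it missed the rule. In RelA-TA-KI libraries the same order held, with 1.75, 1.26 and 1.96 at 1, 3 and 8 h. Creb5 rose at 1, 3 and 8 h (adjusted p = 0.000162, 0.000403 and 2.97e-07 by edgeR). Neurl3, an E3 ligase gene (10.5, 14.9, 21.6, 17.7 and 32.5 CPM), and N4bp1, an inhibitor of NF-kB signalling (44.3, 55.5, 95.9, 86.7 and 129 CPM), had shallower dips at 3 h and rose at 8 h (adjusted p = 0.000309 and 0.00586 by edgeR). In RelA-TA-KI libraries N4bp1 had no dip, with log2 fold changes of -0.15, -0.02, 0.29 and 0.72, and Neurl3 had 0.33, 0.58, -0.04 and 0.99. For Creb5, Neurl3 and N4bp1 alike, the wild-type counting intervals at 1 and 3 h overlapped (1.90 to 2.47 and 1.71 to 2.25 for N4bp1).

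Genes lower after TNF were few at 0.5 and 1 h. Of the 725, 31 were lowest at 0.5 h, 37 at 1 h, 131 at 3 h and 526 at 8 h. In the test, which holds the libraries that set these times, edgeR called 0, 4, 82 and 445 of them there. Genes lowest at 8 h, the last time sampled, may not have reached their lowest level. By duration 59 were transient, 108 intermediate, 8 sustained, 9 returning, 85 late and 456 lower at 8 h only. Library totals gave 148 late and 13 sustained genes, and a minimum of 50 counts 18 transient and 55 intermediate ones. The 8 sustained genes included Dusp6, Id1, Rhoh and Thbd.

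Among feedback regulators of ERK and BMP signalling, lower genes were most frequent at 3 h. Of 9 measured, 0, 1, 5 and 2 were lower at the 4 times, 5 in all, and 2 were higher at some time. Their medians were 0.04, -0.22, -1.19 and -0.81, and by edgeR 0, 1, 4 and 5 fell (2 at 3 h without the RelA-TA-KI 3 h library) and 1 rose at 3 and at 8 h. At 3 and 8 h 1.92% and 5.33% of all measured genes were lower, and edgeR called 5.86% and 14.8% of all genes tested down. Id1, an inhibitor of differentiation induced by BMP, stood at 33.3, 16.7, 8.27, 5.79 and 3.59 CPM, lower at each time than at the one before. At 8 h it was at 0.108 of its start (95% counting interval 0.0648 to 0.170) and it fell (-3.55 ± 0.40, adjusted p = 1.5e-05 by edgeR). Etv5, an ETS factor downstream of ERK, stood at 83.3, 82.8, 71.7, 33.8 and 30.1 CPM and fell at 3 and 8 h (adjusted p = 0.000168 and 4.74e-06 by edgeR). The inhibitory SMAD genes Smad6 (18.1, 18.6, 9.02, 7.72 and 9.33 CPM) and Smad7 (5.88, 7.10, 4.66, 1.93 and 2.87 CPM) fell at 3 h (adjusted p = 0.0156 and 0.019 by edgeR). Id3 ran the other way at first, at 39.8, 130, 76.4, 32.8 and 22.6 CPM, and fell at 8 h (adjusted p = 0.0246 by edgeR). Spred1, an ERK inhibitor, rose at 8 h (1.14 ± 0.14, adjusted p = 4.35e-05 by edgeR), at 181, 187, 248, 369 and 418 CPM.

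Cell cycle genes fell late. Of 27 measured, 0, 0, 1 and 16 were lower at the 4 times, with medians of 0.01, -0.03, -0.35 and -1.05, and 0, 0, 10 and 27 fell by edgeR (4 at 3 h without the RelA-TA-KI 3 h library). At 8 h 5.33% of all measured genes were lower, and edgeR called 5.86% and 14.8% of all genes tested down at 3 and 8 h. The origin-licensing gene Cdc6, outside that list, was lowest at 3 h, at 25.1, 25.9, 18.3, 5.15 and 9.68 CPM, and fell there (-2.26 ± 0.23, adjusted p = 8.55e-05 by edgeR). Rrm2, a subunit of ribonucleotide reductase, stood at 118, 122, 130, 79.2 and 27.8 CPM and fell at 8 h (-2.20 ± 0.16, adjusted p = 2.91e-07 by edgeR). Mcm5, of the replicative helicase, stood at 154, 153, 151, 110 and 51.8 CPM (-1.60 ± 0.09 at 8 h, adjusted p = 5.59e-08 by edgeR). The proliferation marker Mki67 moved less, from 562 CPM to 616, 634, 591 and 312 CPM (-1.08 ± 0.24, adjusted p = 0.00453 by edgeR). E2f7, a repressor of E2F targets, was lower at 8 h only, at 23.5, 22.8, 18.2, 18.3 and 4.66 CPM (adjusted p = 3.2e-06 by edgeR).

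Among 19 measured macrophage identity genes, 4 were higher and 3 lower at some time, and 8 rose and 4 fell at 8 h by edgeR (4 and 6 on library totals). The transcription factor genes Cebpa (98.0, 85.5, 72.0, 39.7 and 37.7 CPM) and Maf (817, 790, 604, 399 and 469 CPM) fell at 3 and 8 h (adjusted p from 1.53e-05 to 0.00113 by edgeR). Cd14, a coreceptor of LPS, was higher through 3 h (84.4, 271, 283, 260 and 157 CPM; adjusted p = 0.000686 at 3 h by edgeR), and Fcgr1, an IgG receptor, only at 8 h (47.8, 40.8, 44.8, 26.9 and 230 CPM; adjusted p = 4.03e-06 by edgeR). Csf1r and Lyz2 stayed within 0.68 and 0.27 of their start on the log2 scale in wild-type. The exons of Csf1r share 17.8% of their bases with a neighbouring gene, so its counts are less certain. None of 16 cholesterol synthesis genes and none of 12 reference genes was past the fold at any time. By edgeR 5 cholesterol synthesis genes rose and 1 fell at 8 h (1 and 3 on library totals), and 3 reference genes rose and 2 fell (1 and 4). Of all genes tested, edgeR called 17.1% up and 14.8% down at 8 h. Of all measured genes, 8.86% were higher and 6.93% lower at some time.

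Outside these lists, strong 8 h losses included Lama3, a laminin chain gene, Rnf150 and Rasgrp3, a RAS exchange factor. Lama3 stood at 13.9, 17.8, 16.7, 6.76 and 0.897 CPM, with a log2 fold change of -3.50 at 8 h. Rnf150 stood at 84.2, 92.3, 87.2, 43.6 and 12.9 CPM, and Rasgrp3 at 53.7, 57.5, 45.3, 17.4 and 8.79 CPM. All 3 were level at 0.5 h, between at 3 h and lowest at 8 h, and fell in the test (adjusted p = 3.04e-07, 8.57e-09 and 8.57e-09 by edgeR).

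**Figure D5:**
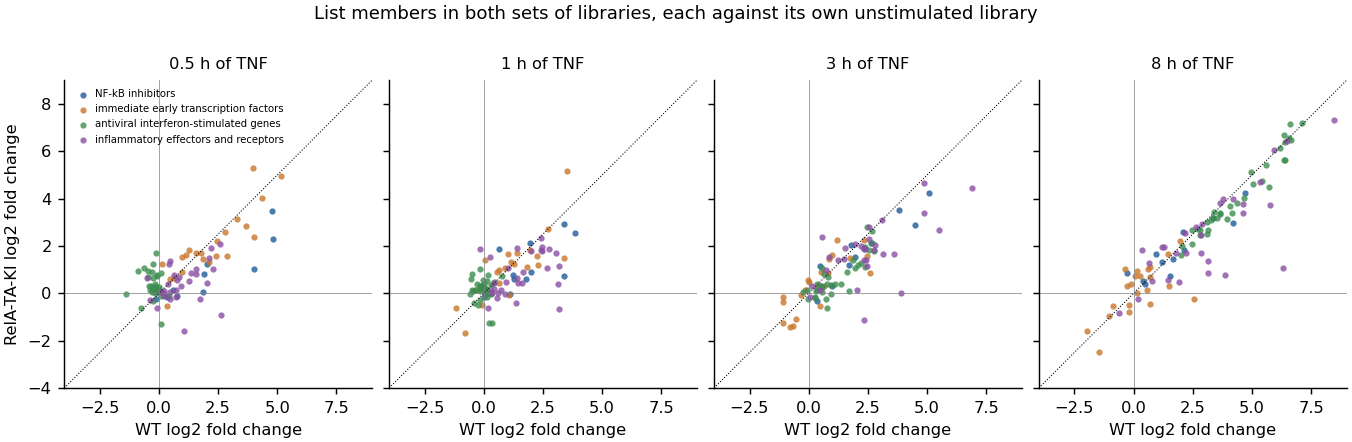
Log2 fold change in wild-type (horizontal axis) and RelA-TA-KI libraries (vertical axis), each against its own unstimulated library, for the measured members of 4 lists at the 4 TNF times; the dotted line marks equal values and each point is 1 gene. At 0.5 h Nfkbia lies at 4.80 and 2.29 and most antiviral genes near 0, and at 8 h the antiviral genes lie near the line, with Ifit2 at 7.11 and 7.18; Saa3 is far below it at 6.30 and 1.06.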

How the data were processed

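Per the labels' protocols, stranded libraries of poly(A) RNA (KAPA mRNA-Seq kit) were sequenced as single 50-base reads. The deposited table holds raw read counts per gene; per the submitters' processing notes cutadapt 1.12, STAR, featureCounts 1.5.0 and DESeq2 were among the tools and mm10 the build, with the strand setting not given in the sources used here. Without the strand, overlapping and antisense genes cannot be told apart. Each of 18 columns was matched to 1 sample by its name.

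Counts were scaled by TMM (edgeR 4.0.16 in R 4.3.3). Measured genes had 20 counts in at least 1 wild-type library, and log2 fold changes used a prior count of 2. A peak was called clear 0.5 above the next time. Counting intervals are exact 95% binomial intervals of the ratio. edgeR's quasi-likelihood test (robust; condition plus genotype; filterByExpr minimum 10 and total 15; Benjamini-Hochberg at 0.05) used all 18 libraries, with 8 residual degrees of freedom. On simulated counts for 8 h of TNF over 11038 genes it recovered 19.4%, 88.1% and 100% of log2 changes of 0.5, 1 and 2. Of its calls there 6.12% were false. The simulation gave every gene the same spread and both genotypes the same change. Recovery of genes that respond differently by genotype was thus not measured. DESeq2 1.42.0 was an alternative. No condition was repeated, and the labels do not say whether libraries came from separate animals or cultures. The p-values therefore rest only on how the difference between genotypes varies over conditions.

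The gene lists and named genes were chosen with earlier results of these data known. Named were, per peak time and duration class, the 6 genes with the largest change (5 for lower genes) that reached 10 CPM, and up to 5 members per list plus members with a role. In all, 20 gene lists were used. Promoters and 3′ UTRs were matched by symbol, from RefSeq (GRCm38.p6) and GENCODE.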

Additional observations from a re-analysis of the deposited data

Results flagged for a closer look

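For 5 gene and time pairs the wild-type and RelA-TA-KI libraries moved past the fold in opposite directions. All rest on few counts, 1 library a side, and the difference was not tested. Lif, encoding a cytokine of the IL-6 family, went from 8 to 29 counts at 0.5 h in wild-type (log2 fold change 1.77) and from 6 to 1 count in RelA-TA-KI libraries (-1.43). Fpr2, a formyl peptide receptor gene, went from 6 to 13 counts at 0.5 h (1.04) and from 4 to 0 counts (-1.57). Nos2 went from 4 to 25 counts at 3 h (2.34) and from 5 to 1 count (-1.14), and Ccr7, a chemokine receptor gene, from 5 to 12 counts (1.21) and from 6 to 1 count (-1.33), both in the RelA-TA-KI 3 h library that stood apart. Olfr56, which shares 5.36% of its exon bases with Ifi47, went from 4 to 0 counts at 0.5 h (-1.25) and from 0 to 3 counts (1.27).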

How the results depend on the processing

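Under library totals the 8 h medians of the immediate early and adhesion lists changed sign, to -0.06 and -0.13. Those of the macrophage identity and reference gene lists did too, from 0.19 and 0.18 to -0.01 and -0.02. Libraries could not be paired by animal or culture, because there was 1 library per genotype and time and the labels give no replicate numbers. The edgeR fit matches the genotypes within each condition through its genotype term. Without a filter on low counts, 355, 412 and 688 genes were higher at 0.5, 1 and 3 h and 250, 293, 506 and 999 lower at the 4 times. Peaks at 0.5, 1 and 3 h then numbered 215, 204 and 295, and transient, intermediate, returning, 8 h only and second wave genes 318, 229, 41, 591 and 25, and edgeR gave 1 gene lower at 0.5 h. At a log2 fold change of 2, 52, 67, 147 and 328 genes were higher and 0, 1, 10 and 40 lower. Peaks then numbered 31, 16, 47 and 289, and transient, intermediate, sustained, returning, late and 8 h only genes 26, 29, 44, 3, 74 and 207, with 0 second wave genes. At 50 counts or more, 8, 21 and 125 genes were lower at 0.5, 1 and 3 h, 4 were returning and 1 had a second wave. A prior count of 5 gave 7 and 28 genes lower at 0.5 and 1 h and 1 second wave gene. A prior count of 0.5 gave 8 second wave genes, and 8 and 16 genes lower in both sets at 0.5 and 1 h. Library totals gave 845 genes lower at 8 h, 5 second wave genes, and 161 and 602 genes lower in both sets at 3 and 8 h. By edgeR they gave 1266 genes lower at 3 h, and 1158 higher and 3510 lower at 8 h. DESeq2 gave 66 genes higher and 1 lower at 0.5 h and 163 higher at 1 h. Without the RelA-TA-KI 3 h TNF library, 462 genes were higher and 284 lower at 3 h. Among classes of lower genes, a prior count of 5 gave 23 transient genes (59 before). The count of second wave genes thus ran from 0 to 25, and the causes were not tested. Scaling by DESeq2 size factors, and a counting interval that leaves out a ratio of 1, moved none of the counts given here by over 1.5 times. The limits are 1 library per time, 5412812 to 6721917 counts each, no unstimulated library at the later times, and a test that averages both genotypes.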

Other observations

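A dip at 1 h, which belongs to no class above, was seen in 10 wild-type genes and in 10 RelA-TA-KI genes that were past the fold at 0.5 and 3 h, by a rule chosen after the values had been seen. Cxcl1, Cxcl2 and Plk2 met it in both sets. Plk2, encoding a polo-like kinase, stood at 75.9, 386, 138, 285 and 328 CPM in the unstimulated, 0.5, 1, 3 and 8 h wild-type libraries. In RelA-TA-KI libraries it stood at 105, 547, 216, 444 and 539 CPM. Tagap, encoding a GTPase-activating protein of T cells, stood at 6.00, 17.6, 5.86, 15.5 and 13.5 CPM in wild-type, so its 1 h level was at its start. The other wild-type genes were Mir155hg, Pilrb1, Slc25a25, Slc39a4, Tnf and Tnfaip3.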
